A study of Mus musculus with 6 samples.

Results

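A set of 10 genes for matricellular proteins and matrix proteoglycans was followed in C2C12 cells, a mouse myoblast line, after 3 days in low-serum differentiation medium. The genes were taken by name from the count table: Thbs1, Thbs2, Tnc, Postn and Sparc for matricellular proteins, and Vcan, Bgn, Dcn, Lum and Hspg2 for proteoglycans. These are 10 of the 55804 genes in the table, and 9 of them had enough reads to be tested. One group of 3 libraries carried a control guide RNA (Ctrl-gRNA, labelled as wild type) and the other 3 had been targeted at Prr33 with CRISPR/Cas9 (Prr33-gRNA, labelled as knocked down). All cells were C2C12, were grown in serum-rich medium and were then moved to medium with horse serum. The labels do not say whether a group's libraries came from separate cultures, or whether the targeted line was 1 clone. P-values therefore reflect only how far these libraries spread, which may be technical. An effect of the guide and a difference between the cell lines derived with each guide cannot be told apart.

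Matricellular proteins are secreted into the matrix but mainly act as signals: they bind integrins, other receptors, growth factors and proteases rather than bear load. Proteoglycans are core proteins that carry sulfated glycosaminoglycan chains, which hold water and growth factors in the matrix and the basement membrane. Myoblasts and the fibroblasts around them both make such proteins, and several are known for their presence in developing and regenerating muscle, where fibres are built or repaired.

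Total counts ran from 17006381 to 19118010 per library in Ctrl-gRNA and from 17412383 to 19471762 in Prr33-gRNA. The targeted transcript, Prr33, was at 61.5, 60.0 and 54.4 CPM (CPM is a count scaled to its library's size, after TMM adjustment) with the control guide and at 43.1, 45.9 and 42.4 CPM with the Prr33 guide. The fitted log2 difference was -0.42 (SE 0.06; edgeR adjusted p = 1.37e-06). Of 16 markers of skeletal myoblasts and myotubes, each was tested, with 13 called lower and 2 higher in Prr33-gRNA. Over all 14651 genes tested, 26.6% were called lower and 25.5% higher, with calls as defined below. Markers of endothelial cells summed to at most 3.64 CPM in any library, those of leukocytes to at most 1.82 and those of Schwann cells to at most 4.51, with Emcn, Ptprc, Adgre1 and Sox10 at 0 throughout. In what follows, levels are mean ± SD over the 3 libraries of a group, and a log2 fold change is Prr33-gRNA minus Ctrl-gRNA. A gene is called when its adjusted p, from edgeR's quasi-likelihood test with Benjamini-Hochberg adjustment over all genes, is below 0.05.

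Thbs1 rose with the Prr33 guide, and Tnc, Postn, Sparc, Vcan, Bgn, Dcn and Hspg2 fell. Thbs2 was not called and Lum had no reads. The falls were deepest for Vcan, Dcn and Bgn, and shallow for Sparc and Hspg2, which are among the most abundant of the group. So 8 of 9 tested members were called, against 52.1% of all 14651 genes tested. The 7 that fell compare with 26.6% of all genes called lower, and the 1 that rose with 25.5% called higher. The members' median log2 fold change was -0.94, and that of all genes tested -0.0023. In 8 of 9 tested members the CPM ranges of the groups did not overlap, which held for 57.9% of all genes. A change of at least 2-fold was reached by 3 members that fell (7.96% of all genes) and by 1 that rose (2.91% of all genes). With scaling by library size alone, the share of called genes that were higher moved from 49.0% to 61.7%, and the members' counts stayed at 1 higher and 7 lower. In a culture, fewer cells of a type and less RNA per cell cannot be told apart.

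**Figure D1:**
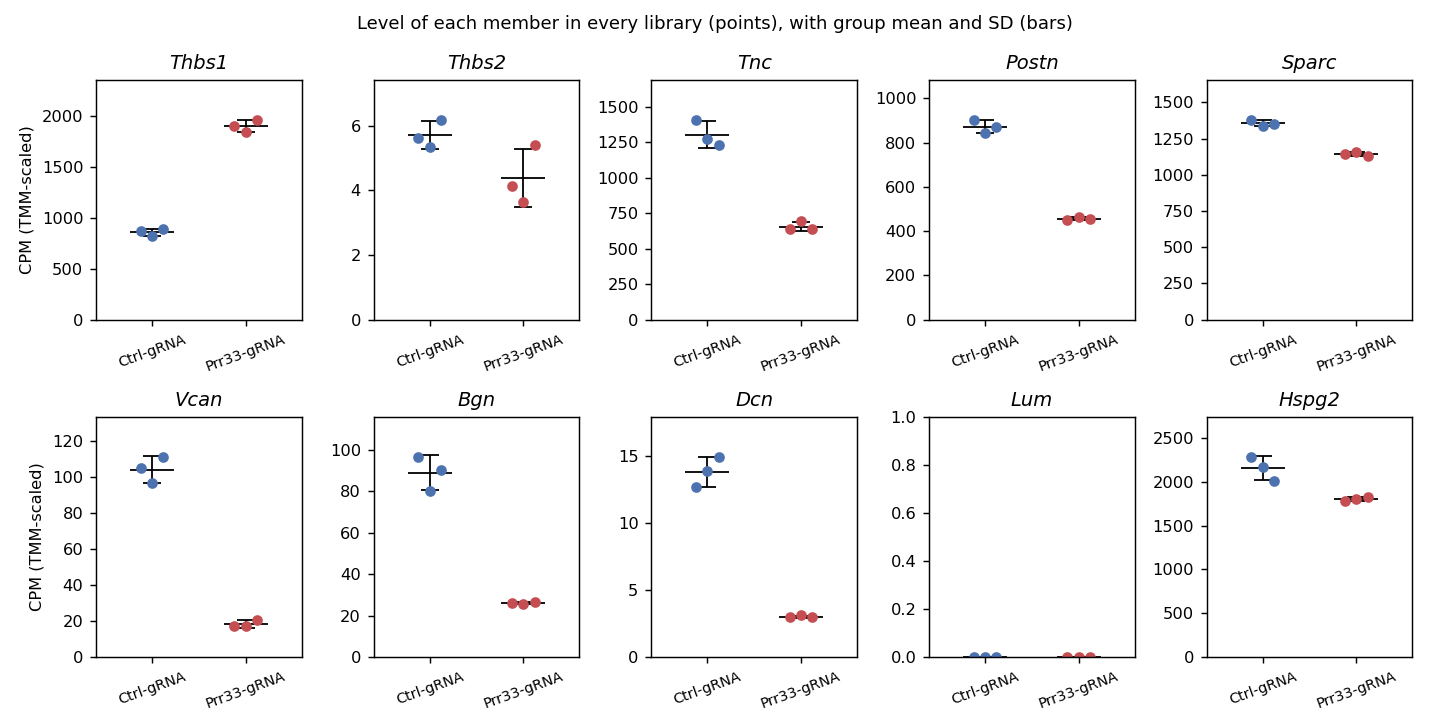
CPM of each of the 10 members (vertical axes, each from 0) in the 3 Ctrl-gRNA and 3 Prr33-gRNA libraries (points), with the group mean and SD (bars). Thbs1 is higher in each Prr33-gRNA library, the groups overlap for Thbs2, Lum is at 0, and the other 7 members are lower.

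Among the matricellular proteins, Thbs1 was the member that rose. It encodes thrombospondin-1, a trimeric glycoprotein that binds CD47 and CD36 and can activate latent TGF-beta. Thbs1 (ENSMUSG00000040152) lies on chromosome 2 at 118111876 to 118127133 on the plus strand (mm10). Its level was 866, 822 and 885 CPM with the control guide and 1897, 1846 and 1962 CPM with the Prr33 guide. Each Prr33-gRNA library was above each Ctrl-gRNA library, and replicates within a group differed by far less than the groups did. The means were 858 ± 32.6 and 1902 ± 58.2 CPM, a 2.22-fold rise (log2 fold change 1.15, SE 0.04; edgeR adjusted p = 1.52e-22). In GENCODE M21, 208 of its exonic bases also belong to Gm29233, an RNA gene on the other strand, which had 0 counts.

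Thbs2, the closest relative of Thbs1 in the set, was barely expressed. It encodes thrombospondin-2, another trimeric thrombospondin that binds CD47 and CD36 and is known to limit vessel growth. The counts were 104, 88 and 104 with the control guide and 76, 66 and 108 with the Prr33 guide, and the groups overlapped. The levels were 5.72 ± 0.436 and 4.40 ± 0.905 CPM. The gene was not called, and the 95% interval of the fold ran from 0.594 to 1.002 (log2 fold change -0.37, SE 0.19; edgeR adjusted p = 0.0902). It was called without Prr33-gRNA replicate 3, the highest of the 6 counts (log2 fold change -0.55; edgeR adjusted p = 0.0267). On the deposited FPKM scale (fragments scaled to gene length and library size), Thbs1 made up 99.4% ± 0.0248 of the summed level of Thbs1 and Thbs2 in Ctrl-gRNA and 99.8% ± 0.0348 in Prr33-gRNA.

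Tnc and Postn fell by similar amounts. Tnc encodes tenascin-C, a large multi-armed glycoprotein made in developing and injured tissue that weakens adhesion to fibronectin. Its level was 1410, 1275 and 1231 CPM with the control guide and 636, 692 and 640 CPM with the Prr33 guide. The highest Prr33-gRNA library was well below the lowest Ctrl-gRNA library. The means were 1305 ± 93.3 and 656 ± 31.4 CPM (log2 fold change -0.99, SE 0.05; edgeR adjusted p = 5.00e-17). Postn encodes periostin, a fasciclin-domain protein that binds integrins and collagen and is induced by TGF-beta. Its level was 904, 844 and 872 CPM against 450, 464 and 453 CPM, again without overlap. The means were 873 ± 30.2 and 456 ± 7.50 CPM (log2 fold change -0.94, SE 0.04; edgeR adjusted p = 5.35e-20). Tnc shares 176 exonic bases with 8030451A03Rik, a transcript of the other strand with at most 173 counts in a library. Whether the counting used strand is not stated, so reads over those bases cannot be assigned to one gene or the other.

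Sparc changed little. It encodes osteonectin, a calcium- and collagen-binding glycoprotein that helps collagen fibrils form. Its level was 1381, 1341 and 1348 CPM with the control guide and 1145, 1155 and 1131 CPM with the Prr33 guide. The replicates were the tightest of the tested members in both groups, with coefficients of variation of 1.57% and 1.01%, so the groups stayed apart although the difference was small. The means were 1357 ± 21.3 and 1144 ± 11.6 CPM (log2 fold change -0.25, SE 0.04; edgeR adjusted p = 1.54e-06). With libraries scaled by size alone the log2 fold change was -0.16 (edgeR adjusted p = 7.06e-04).

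Among the proteoglycans, each of the 4 with reads fell. Vcan encodes versican, a large chondroitin sulfate proteoglycan that binds hyaluronan and forms a loose provisional matrix. Its level was 105, 96.3 and 111 CPM with the control guide and 17.1, 16.9 and 20.7 CPM with the Prr33 guide. The level in Prr33-gRNA was 17.5% of that in Ctrl-gRNA, the deepest fall of the 10. The means were 104 ± 7.35 and 18.2 ± 2.16 CPM (log2 fold change -2.51, SE 0.07; edgeR adjusted p = 9.93e-24). On log2(FPKM + 1), where the added 1 weighs on low genes, the value was -1.85. The gene has 9 annotated transcripts in GENCODE M21, and counts per gene do not separate the splice forms, which carry different numbers of glycosaminoglycan chains.

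Bgn and Dcn, for biglycan and decorin, are close relatives. Both are small leucine-rich proteoglycans with chondroitin or dermatan sulfate chains that bind collagen fibrils and TGF-beta. Bgn, on the X chromosome, was at 96.6, 80.1 and 90.6 CPM with the control guide and at 25.9, 25.4 and 26.3 CPM with the Prr33 guide. The means were 89.1 ± 8.39 and 25.9 ± 0.460 CPM (log2 fold change -1.78, SE 0.07; edgeR adjusted p = 2.68e-21). Its 3 Prr33-gRNA libraries agree closely, and the Ctrl-gRNA libraries spread more, with a coefficient of variation of 9.42%. Dcn was low in both groups, with 234, 228 and 250 counts with the control guide and 54, 56 and 59 with the Prr33 guide. The means were 13.8 ± 1.12 and 3.00 ± 0.0895 CPM (log2 fold change -2.20, SE 0.15; edgeR adjusted p = 1.92e-14). On log2(FPKM + 1) the Dcn value was -1.14, where the added 1 exceeds its deposited FPKM with the Prr33 guide (0.511 ± 0.0161) but not with the control guide (2.34 ± 0.196). Dcn made up 13.99% ± 1.72 of the summed FPKM of Bgn and Dcn in Ctrl-gRNA and 10.8% ± 0.443 in Prr33-gRNA.

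Lum encodes lumican, a keratan sulfate proteoglycan that spaces collagen fibrils in cornea, skin and tendon. It had 0 counts in each of the 6 libraries, and with 3 counts as the limit a count of 0 allows, its level was below 0.150 to 0.182 CPM, depending on the library. Lum lies next to Dcn on chromosome 10: Dcn spans 97479609 to 97518143 and Lum 97565128 to 97572703, both on the plus strand (mm10). Within 250 kb of the pair the count table lists 12 genes, and 11 of them, with the related proteoglycan genes Kera and Epyc, had 0 counts in every library. Dcn was the one gene there with reads.

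Hspg2 encodes perlecan, the large heparan sulfate proteoglycan of basement membranes, which surround each muscle fibre. It took 33775 to 42200 counts per Ctrl-gRNA library, the most of the 10 genes there, and 32594 to 36425 per Prr33-gRNA library. Its level was 2282, 2171 and 2011 CPM against 1777, 1804 and 1822 CPM. The groups did not overlap, but the lowest Ctrl-gRNA library was nearer to the Prr33-gRNA libraries than to the highest Ctrl-gRNA library. The means were 2155 ± 136 and 1801 ± 23.0 CPM (log2 fold change -0.26, SE 0.04; edgeR adjusted p = 3.26e-06). With libraries scaled by size alone the log2 fold change was -0.17 (edgeR adjusted p = 8.51e-04). Hspg2 and Tnc both lie on chromosome 4, far apart, at 137468769 to 137570630 and 63959785 to 64047015. No member lies on chromosome 14, where 397 of 472 tested genes were lower.

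**Figure D2:**
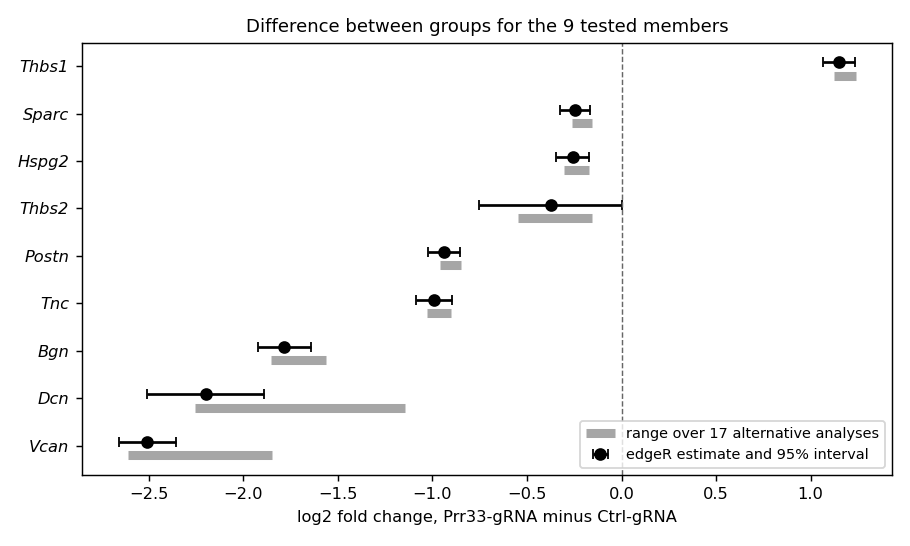
Log2 fold change (Prr33-gRNA minus Ctrl-gRNA) of the 9 tested members, with the edgeR estimate and its 95% interval (points and whiskers) and the range over 17 alternative analyses (grey bars). Thbs1 lies near 1.15 and Vcan near -2.51, the interval of Thbs2 reaches 0, and the grey bars of Dcn and Vcan extend toward 0 because of the log2(FPKM + 1) scale.

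Levels can be set against each other between genes only per length, which the deposited FPKM values allow roughly. For Postn the length used was 8702 bases, all exons of its 9 annotated transcripts merged, and for Thbs1 6073 bases from 2 transcripts. Where the transcripts made are shorter than the merged exons, FPKM is too low, and by unlike amounts between genes. The order below and each share of summed FPKM given here therefore hold for that length only. In Ctrl-gRNA, Sparc was highest at 355 ± 4.98 FPKM, followed by Tnc (167 ± 11.5), Hspg2 (145 ± 8.76), Thbs1 (140 ± 5.52) and Postn (99.6 ± 3.35). Hspg2 and Thbs1 overlapped there, and the other neighbours in the order did not. Bgn (14.5 ± 1.36 FPKM), Vcan (7.13 ± 0.517), Dcn (2.34 ± 0.196) and Thbs2 (0.810 ± 0.0637) were far lower. In Prr33-gRNA, Thbs1 was at 312 ± 8.78 FPKM and Sparc at 301 ± 3.79, and the ranges of these leading genes overlapped. Hspg2 (122 ± 1.35 FPKM), Tnc (84.1 ± 4.16), Postn (52.2 ± 0.922), Bgn (4.23 ± 0.0652) and Vcan (1.26 ± 0.145) came next in that order without overlap. Thbs2 (0.625 ± 0.127 FPKM) and Dcn (0.511 ± 0.0161) overlapped at the low end.

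**Figure D3:**
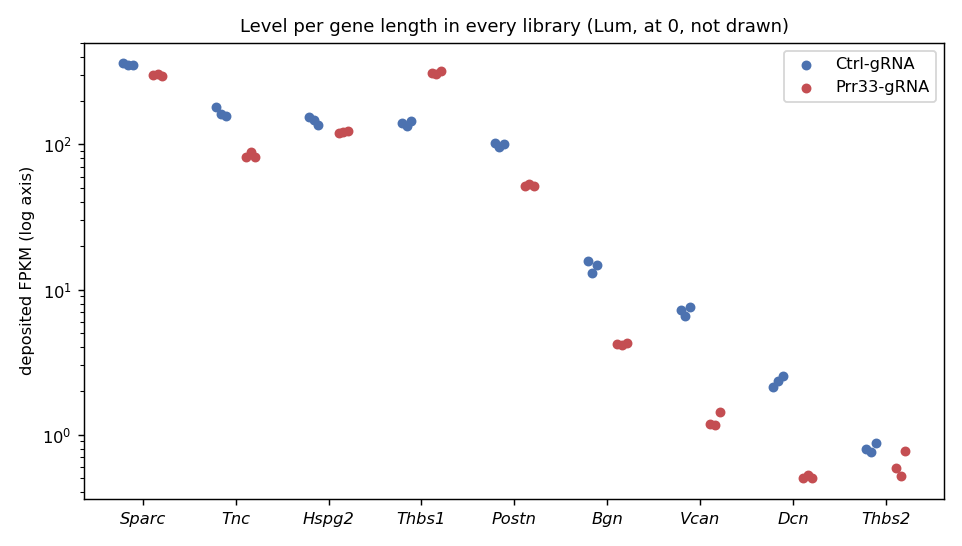
Deposited FPKM (vertical log axis) of the 9 members with reads in every library, ordered by their Ctrl-gRNA mean, with Ctrl-gRNA in blue and Prr33-gRNA in red. Sparc leads in Ctrl-gRNA at 355 and Thbs1 in Prr33-gRNA at 312, and Lum, at 0, is not drawn.

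The sum over the 10 members hid these shifts. It was 931 ± 27.7 FPKM in Ctrl-gRNA and 878 ± 4.14 in Prr33-gRNA. Thbs1 alone went from 15.0% ± 0.647 to 35.6% ± 0.949 of that sum. Tnc went from 17.9% ± 0.739 to 9.58% ± 0.466 and Postn from 10.7% ± 0.165 to 5.95% ± 0.1002. Sparc had 38.2% ± 0.618 and 34.3% ± 0.525 of the sum, and Hspg2 had 15.6% ± 0.677 and 13.9% ± 0.0885. In reads, the members took 0.655% ± 0.0250 of all counts in Ctrl-gRNA and 0.619% ± 0.00721 in Prr33-gRNA.

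**Figure D4:**
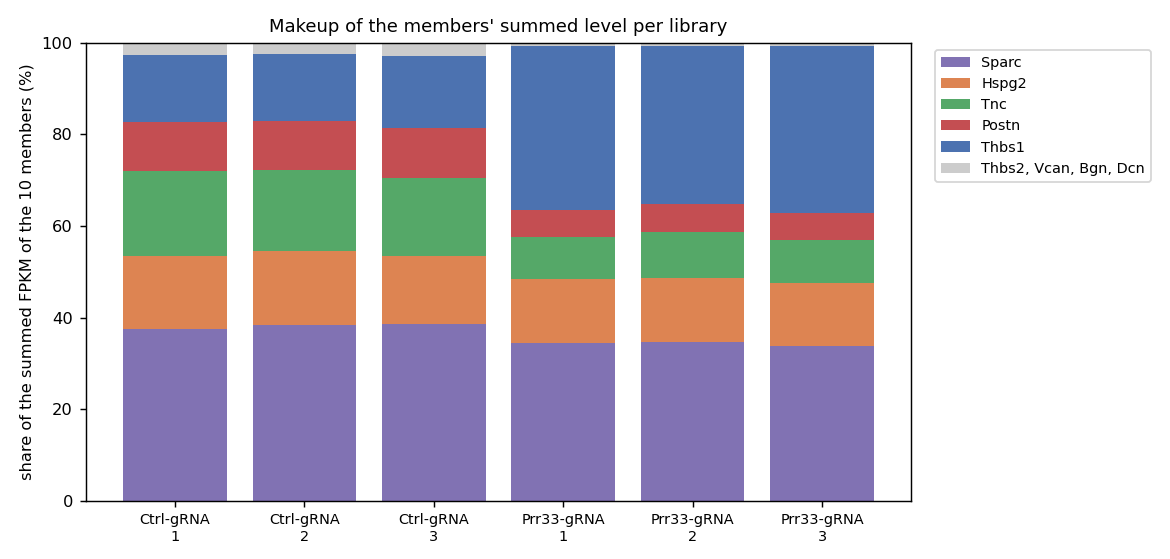
Share of the summed FPKM of the 10 members (vertical axis, percent) taken by each of the 5 abundant members and by the rest, in every library. Thbs1 takes 14.7% to 15.8% with the control guide and 34.5% to 36.4% with the Prr33 guide, and the shares of Tnc and Postn are smaller in the latter.

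Promoter sequence is shown for the 4 members with the deepest falls among those that the RefSeq promoter table (GRCm38.p6) holds, namely Tnc, Postn, Vcan and Bgn. The table holds 7 of the 10 members in 9 windows. Thbs1, Dcn and Lum have no entry. Each sequence is the 250 bases before a RefSeq transcript start, 5′ to 3′ on the gene's own strand. Of the 2 windows each of Tnc and Postn, the one nearest to the gene's annotated 5′ end is printed. Capitals mark matches to TATAAA (the TATA-box pattern) and to CANNTG. The latter is the E-box pattern that MyoD-type factors can bind, and it reads the same on both strands. The windows (GRCm38) are chr4:64047016-64047265 on the minus strand for Tnc, chr3:54360857-54361106 on the plus strand for Postn, chr13:89742513-89742762 on the minus strand for Vcan and chrX:73483351-73483600 on the plus strand for Bgn.
Tnc: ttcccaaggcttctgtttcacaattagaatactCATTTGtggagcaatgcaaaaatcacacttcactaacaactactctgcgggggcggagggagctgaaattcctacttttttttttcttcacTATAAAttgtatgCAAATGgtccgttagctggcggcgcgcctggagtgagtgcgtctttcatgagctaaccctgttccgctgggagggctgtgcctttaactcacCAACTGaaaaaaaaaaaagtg
Postn: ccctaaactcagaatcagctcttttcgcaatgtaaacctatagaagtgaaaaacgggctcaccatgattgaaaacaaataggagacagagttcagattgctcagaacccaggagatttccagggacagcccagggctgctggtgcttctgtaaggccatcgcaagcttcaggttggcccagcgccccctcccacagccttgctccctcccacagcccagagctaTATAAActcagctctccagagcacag
Vcan: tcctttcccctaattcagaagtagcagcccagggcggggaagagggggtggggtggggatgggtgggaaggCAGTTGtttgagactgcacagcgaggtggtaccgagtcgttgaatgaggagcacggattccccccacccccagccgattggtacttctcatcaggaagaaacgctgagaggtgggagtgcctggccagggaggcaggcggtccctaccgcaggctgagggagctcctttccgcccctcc
Bgn: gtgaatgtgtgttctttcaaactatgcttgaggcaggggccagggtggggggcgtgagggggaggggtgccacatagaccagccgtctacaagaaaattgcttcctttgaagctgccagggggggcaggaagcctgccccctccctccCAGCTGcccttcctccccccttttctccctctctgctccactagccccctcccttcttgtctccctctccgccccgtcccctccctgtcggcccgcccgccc

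The Postn window has TATAAA from 26 to 21 bases before the start, and the Tnc window has it from 126 to 121 bases before. Neither the Vcan nor the Bgn window holds TATAAA, and both are rich in G and C, at 62.4% and 64.4% against a median of 52.4% over all windows. Over the member windows TATAAA was found in 4 of 9, against 12.4% of the 32851 windows in the table. These were the 2 Tnc windows, which overlap and hold the same match, the printed Postn window and that of Thbs2. The Thbs2 match is on the opposite strand, from 126 to 121 bases before the start. CANNTG was found in 6 of 9, against 66.2% of all windows, with 3 matches in the Tnc window, 1 each in those of Vcan and Bgn, and 0 in that of Postn. On both strands, TGANTCA (the AP-1 pattern), GGAATG (the TEAD pattern) and the CArG box (the SRF pattern) were found in 0 of 9, against 6.75%, 12.6% and 1.47% of all windows. Different matches did not overlap each other in the 4 printed windows. A match describes these letters and is not a measured binding site.

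Other matricellular genes mostly had few reads. In the thrombospondin family, Thbs3, chosen here after its value was seen, fell from 2.66 to 1.08 CPM (-1.28 on the log2 scale; edgeR adjusted p = 8.31e-04), Thbs4 had 0 counts and Comp had 1 count in all of Ctrl-gRNA and 3 in all of Prr33-gRNA. Apart from Tnc, no tenascin gene passed the filter on low counts, with at most 2 counts in a library. In the SPARC family, 2 of 7 further genes were tested and both fell, against 26.6% of all genes called lower. Fstl1, for a secreted follistatin-like glycoprotein, fell from 445 ± 12.9 to 200.2 ± 4.36 CPM (-1.15 on the log2 scale; edgeR adjusted p = 5.42e-22). Spock2, a testican picked out after its value was seen, fell from 2.62 to 0.205 CPM (log2 fold change -3.59). The latter level is near the 3-count limit of 0.150 to 0.182 CPM and rests on 2, 1 and 9 counts. Without Prr33-gRNA replicate 3 the Spock2 value was -4.87, and on log2(FPKM + 1) it was -0.50.

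The CCN proteins, small matricellular regulators that bind integrins and heparan sulfate, went in both directions. Of 8 further genes in the list of fasciclin proteins, CCN proteins and osteopontin, 6 were tested, 1 rose, 1 fell and 4 were not called. Shares over all genes were 25.5% called higher and 26.6% called lower (list median log2 fold change -0.07, with Postn). Ccn1 rose from 163 ± 1.85 to 239 ± 6.91 CPM (0.55 on the log2 scale; edgeR adjusted p = 9.88e-13). Ccn2, the connective tissue growth factor, fell from 96.6 ± 5.88 to 30.7 ± 1.25 CPM (-1.65 on the log2 scale; edgeR adjusted p = 1.20e-21). Spp1, for osteopontin, was at 364 ± 50.2 and 302 ± 9.50 CPM and was not called (log2 fold change -0.27; edgeR adjusted p = 0.0688). It was called lower in 7 of 17 alternatives. These were DESeq2 (adjusted p = 0.0476), limma on log2(FPKM + 0.1) (0.0495) and log2(FPKM + 1) (0.0484), the fit with no low-count filter (2.09e-07), and the fit with the replicate number as a block (3.84e-07). The others left out Ctrl-gRNA replicate 2 (log2 fold change -0.35) or Ctrl-gRNA replicate 3 (-0.15). Ccn4 was not called either (log2 fold change 0.04), except with libraries scaled by size alone (0.13; edgeR adjusted p = 0.0135).

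Among the small leucine-rich proteoglycans, 4 of 13 further genes were tested, 0 rose and 2 fell, against 25.5% and 26.6% of all genes. Ogn, for osteoglycin, was the most abundant of them in CPM and fell from 413 ± 17.5 to 314 ± 25.1 CPM (-0.39 on the log2 scale; edgeR adjusted p = 9.63e-08). Ecm2, named after its value was seen, fell from 5.18 to 0.905 CPM (log2 fold change -2.51). Podnl1, at 40.5 ± 1.18 and 37.8 ± 3.09 CPM, was not called. With Bgn and Dcn, 4 of 6 tested genes of the list fell, and the median log2 fold change was -1.09.

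Only part of the hyaluronan list beyond Vcan could be tested. Of 10 further hyaluronan-binding proteoglycans, link proteins and hyaluronan synthases, 5 were tested, 2 fell and 0 rose. Among all genes tested, 26.6% were called lower and 25.5% higher, and 5 genes are too few to set apart from these shares. Hapln4, for a link protein that fastens proteoglycans to hyaluronan, fell from 39.8 ± 2.59 to 19.7 ± 1.88 CPM (-1.01 on the log2 scale; edgeR adjusted p = 2.08e-12). Has2, a hyaluronan synthase, fell from 35.1 ± 3.47 to 23.8 ± 1.11 CPM (-0.56 on the log2 scale; edgeR adjusted p = 7.84e-07). Of versican's closest relatives, Acan and Ncan had at most 2 counts in a library and Bcan, with 6 to 21 counts, was not called.

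Among the other basement membrane and cell surface proteoglycans, 10 of 14 were tested, 5 fell and 2 rose, against 26.6% and 25.5% of all genes. Agrn, for agrin, the basement membrane heparan sulfate proteoglycan that clusters acetylcholine receptors, fell from 628 ± 11.8 to 110.2 ± 4.01 CPM (-2.51 on the log2 scale; edgeR adjusted p = 2.45e-31). Sdc3, for a syndecan of muscle progenitors, fell from 223 ± 16.5 to 21.8 ± 0.780 CPM (-3.35 on the log2 scale; edgeR adjusted p = 8.59e-31). Sdc1 fell from 160.4 ± 8.29 to 85.0 ± 4.60 CPM (log2 fold change -0.92). Col18a1, whose product carries heparan sulfate, rose from 5.35 ± 1.13 to 12.8 ± 1.85 CPM (1.25 on the log2 scale; edgeR adjusted p = 2.05e-08). Thus 2 heparan sulfate proteoglycans of the basement membrane, Agrn and Hspg2, fell by unlike amounts and the third, Col18a1, rose. The other rise, that of Sdc4 (log2 fold change 0.13, named after its value was seen), was not called without Ctrl-gRNA replicate 2 (0.13), Ctrl-gRNA replicate 3 (0.10) or Prr33-gRNA replicate 2 (0.090), nor on either FPKM scale.

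Receptors for these proteins moved both ways. Of 23 listed, 20 were tested, 9 rose and 9 fell (median log2 fold change 0.03), against 25.5% and 26.6% of all genes. Cd47, a thrombospondin receptor, fell from 188 ± 4.38 to 80.8 ± 2.79 CPM (-1.22 on the log2 scale; edgeR adjusted p = 5.23e-21). Cd36, another thrombospondin receptor and one named after its value was seen, rose from 24.7 to 42.2 CPM (0.78 on the log2 scale; edgeR adjusted p = 2.99e-09). Tlr2, a pattern receptor that can bind biglycan and versican, fell from 26.1 ± 0.900 to 4.67 ± 0.679 CPM (log2 fold change -2.48), and Itga4 fell from 25.5 ± 0.568 to 5.06 ± 0.593 CPM (log2 fold change -2.33). Itgav, for the alpha-v integrin chain that binds periostin, tenascin-C and thrombospondin-1, rose from 217 ± 6.17 to 364 ± 7.59 CPM (0.75 on the log2 scale; edgeR adjusted p = 1.27e-16).

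Of 36 listed enzymes that build glycosaminoglycan chains, 32 were tested, 8 rose and 9 fell (median log2 fold change -0.03), shares near the 25.5% of all genes called higher and the 26.6% called lower. Without Ctrl-gRNA replicate 2, 5 rose and 9 fell. Ext1, a heparan sulfate polymerase, fell from 219.5 ± 5.80 to 126 ± 7.34 CPM (-0.80 on the log2 scale; edgeR adjusted p = 6.35e-16). Extl3, which starts heparan sulfate chains and lies on chromosome 14, fell from 129 ± 7.34 to 64.5 ± 1.31 CPM. Of the chondroitin sulfotransferases, Chst15 fell from 101.1 ± 1.74 to 63.2 ± 3.27 CPM (log2 fold change -0.68) and Chst11 rose from 17.8 ± 1.52 to 35.9 ± 1.58 CPM (1.01; edgeR adjusted p = 2.79e-12).

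Among enzymes that cut proteoglycans, hyaluronan or their partners, or remove sulfate, 11 of 15 were tested, 8 fell and 2 rose (median log2 fold change -0.34). The shares over all genes were 26.6% called lower and 25.5% called higher. Mmp2, a gelatinase that also cleaves decorin, fell from 78.8 ± 5.07 to 3.70 ± 0.981 CPM (-4.42 on the log2 scale; edgeR adjusted p = 2.43e-22). Mmp14 and Bmp1, the latter a protease that trims probiglycan, fell (log2 fold changes of -1.11 and -1.46), and both lie on chromosome 14. Adamts5, a versicanase and aggrecanase, rose from 154 ± 1.64 to 255 ± 12.6 CPM (0.72 on the log2 scale; edgeR adjusted p = 2.13e-15). The other rise, that of Cemip (0.15, named after its value was seen), was no longer called when any 1 library other than Ctrl-gRNA replicate 2 was left out, from 0.099 without Ctrl-gRNA replicate 3 to 0.16 without Prr33-gRNA replicate 2.

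The list of genes for TGF-beta, its receptors and its latency proteins also holds Mstn, for myostatin. Its 10 tested genes were all called, against 52.1% of all genes. Of them 4 were higher and 6 lower, against 25.5% and 26.6% of all genes, with a median log2 fold change of -0.25. When single libraries were left out, 4 were higher and 5 to 6 lower. Tgfb3 fell from 252 ± 7.23 to 160 ± 8.77 CPM (-0.66 on the log2 scale; edgeR adjusted p = 5.08e-14). Ltbp1 and Ltbp4, which hold latent TGF-beta in the matrix, fell (log2 fold changes of -0.55 and -0.38). The receptor gene Tgfbr2 rose from 285 ± 4.86 to 392 ± 7.09 CPM (0.46 on the log2 scale; edgeR adjusted p = 1.66e-11).

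**Figure D5:**
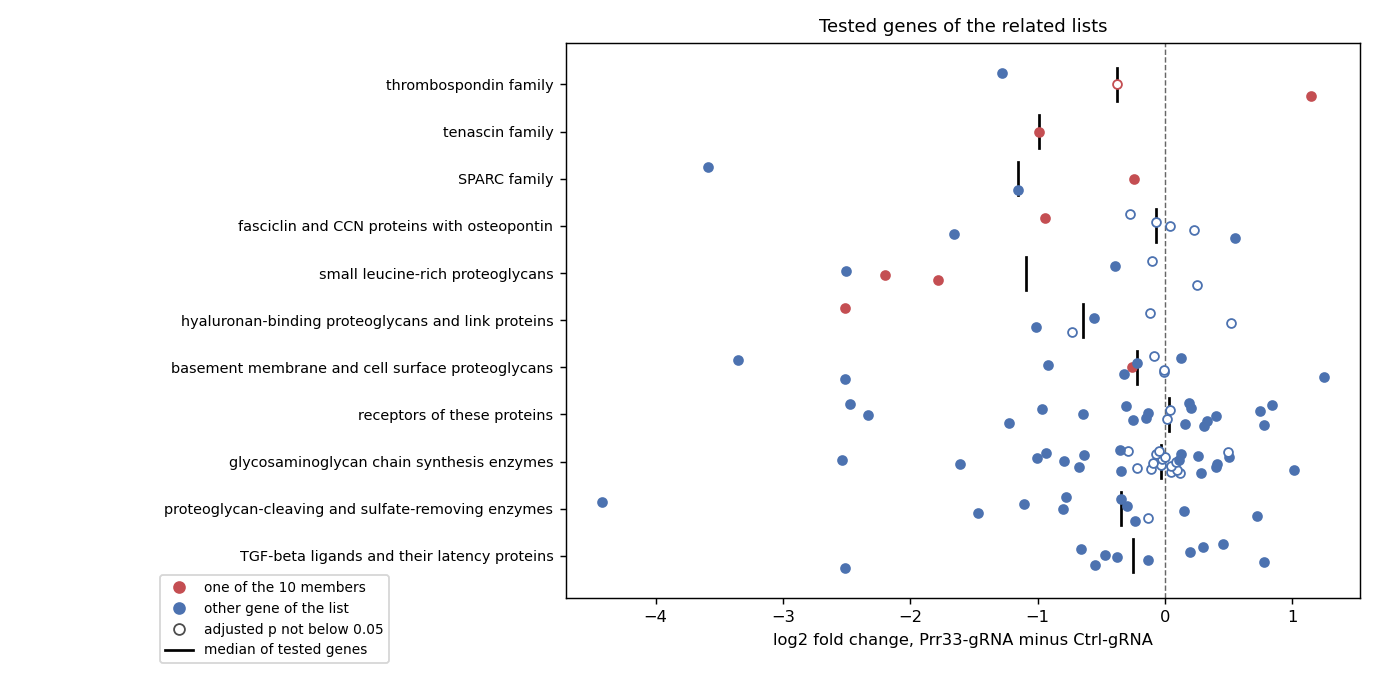
Log2 fold change (horizontal axis, Prr33-gRNA minus Ctrl-gRNA) of each tested gene in 11 lists, with the 10 members in red where tested, other genes in blue, open circles where the adjusted p is not below 0.05, and the list median as a black line. The medians run from -1.15 (SPARC family) to 0.03 (receptors).

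Markers of other matrix-producing cells differed between the groups too, and their part in the changes of the 10 members was not tested. Beside each marker list here stand the 26.6% of all genes called lower and the 25.5% called higher. Of 12 markers of fibroblasts and mesenchymal progenitors, 8 were tested, 6 fell and 1 rose. Their summed level ran from 1817 to 1949 CPM with the control guide and from 885 to 950 CPM with the Prr33 guide. Ly6a fell from 464 ± 16.3 to 4.76 ± 0.405 CPM and Pdgfrb from 28.5 ± 1.72 to 4.84 ± 0.358 CPM, while Col1a1 fell from 179 ± 12.4 to 9.33 ± 0.949 CPM and Col1a2 rose from 6.66 ± 0.659 to 41.4 ± 1.74 CPM. Tcf21 was at 0, and Thy1 and Dpt had 3 counts each in all of Ctrl-gRNA and 1 each in all of Prr33-gRNA. Of 5 tendon markers, 3 were tested and 2 fell, and the summed level was 341 to 349 against 303 to 329 CPM. Egr1 fell from 135 ± 1.49 to 114 ± 2.06 CPM and Mkx from 8.80 ± 0.708 to 5.40 ± 0.0776 CPM, Scx was not called at 200.2 ± 3.41 and 194 ± 13.9 CPM, and Tnmd and Fmod were at 0. Of 9 chondrocyte and osteoblast markers, 2 were tested: Runx2 rose from 34.6 ± 3.06 to 50.5 ± 2.53 CPM and Sox9 fell from 48.5 ± 1.80 to 42.1 ± 3.22 CPM, and the list summed to 83.1 to 85.6 against 92.3 to 94.5 CPM with Ibsp at 0. Sox9 was not called with library size alone (edgeR adjusted p = 0.153) or without Ctrl-gRNA replicate 2 (0.0773) or Prr33-gRNA replicate 3 (0.0919). Of 8 adipocyte markers, 3 were tested, with 1 higher and 1 lower, and the sum was 14.1 to 15.96 against 59.8 to 64.0 CPM. Lpl rose there from 6.37 ± 0.930 to 55.9 ± 2.21 CPM, while Cebpa, named after its value was seen, fell from 4.44 to 1.64 CPM. Adipoq, Cidec and Plin1 were at 0. Of 7 smooth muscle and pericyte markers, 2 were tested and 1 fell, Acta2, from 5821 ± 6.90 to 4754 ± 70.5 CPM, and the sum was 5816 to 5831 against 4701 to 4835 CPM. Of the skeletal markers, 13 were called lower and 2 higher, with a largest log2 fold change of 1.003. Myog fell from 1186 ± 86.2 to 384 ± 23.0 CPM, and Ckm, named after its value was seen, rose from 606 ± 5.38 to 713 ± 26.1 CPM. The list summed to 36595 to 37084 CPM in Ctrl-gRNA and 21333 to 22258 CPM in Prr33-gRNA.

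The genes whose pattern over the 6 libraries was most like that of Thbs1, the member with the highest rise, were Col5a2, Ctnnal1 and Lifr. Likeness was the root mean square difference in log2 CPM after each gene was centred on its mean, over 10134 protein-coding genes averaging at least 5 CPM. It was 0.020 for Col5a2, a fibrillar collagen chain that went from 445 ± 13.0 to 974 ± 22.3 CPM, 0.039 for Ctnnal1 and 0.045 for Lifr. For Vcan, the member with the deepest fall, the nearest were Afap1l1 (0.089), Tlr2 (0.093) and Psme2 (0.10). Afap1l1 went from 31.0 ± 2.27 to 5.17 ± 0.747 CPM. With 2 groups the measure mostly compares the size of the group difference, so it picks genes with a like fold change.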

How the data were processed

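RNA-seq gene counts of 6 C2C12 libraries came from 2 tables the authors deposited: raw whole-number counts, and FPKM values. CASAVA, HISAT2 2.0.5, featureCounts 1.5.0-p3 and mm10 are named, per the submitters' processing notes; annotation release and strand setting are not given in the sources used here. In each library the deposited FPKM is the count divided by gene length and by a single constant, 0.973 to 1.04 of the library's total, so FPKM is no separate check on the scaling.

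Groups and replicate numbers came from the sample titles. The members and gene lists were chosen with earlier results of these data known. Counts were tested in edgeR 4.0.16 (R 4.3.3; glmQLFit with robust fitting, glmQLFTest) on the 14651 genes kept by filterByExpr, with TMM factors and group as the only term. The SE is the absolute log2 fold change over the square root of F. CPM uses TMM-scaled totals, so 3 counts are 0.150 to 0.182 CPM, and such floors cover counting error only. The other genes named are the up to 4 per list with the lowest adjusted p among those averaging at least 5 CPM, and the 3 nearest in pattern to the members with the highest rise and deepest fall; exceptions are said to be so. On counts simulated for this comparison, edgeR recovered 26, 32, 44 and 50 of 50 genes changed by 1.25, 1.5, 2 and 4-fold, with 13 false calls among 14420 genes. Only these genes were changed there, equally up and down, whereas 52.1% of genes were called in the real data. The simulated recovery and false calls therefore need not hold for the real data. Alternatives were RLE factors, library size alone, DESeq2 1.42.0, limma-voom (limma 3.58.1), no low-count filter, 1 CPM in 3 libraries, protein-coding genes only, chromosome 14 left out, replicate number as a block, limma fits of log2(FPKM + 1) and of log2(FPKM + 0.1), and leaving out each library. Library pairs within a group differed beyond counting noise (chi-square per gene 2.90 to 5.73). Gene spans and exons came from GENCODE M21, whose spans equal the files' for each member, and promoters from RefSeq. Protein sequences and their features were not analysed here.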

Additional observations from a re-analysis of the deposited data

How the results depend on the processing

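Of 153 values of the 9 tested members over 17 alternative analyses, 1 changed its side of the threshold and 0 changed direction: Thbs2 was called without Prr33-gRNA replicate 3 (log2 fold change -0.55). The numbers of members higher and lower were 1 and 7, and 1 and 7 to 8 when single libraries were left out. Prr33 was lower and called throughout, from -0.47 to -0.33. Over all genes, 3316 to 3709 were higher and 3484 to 3884 lower when single libraries were left out. Of 1017 values of 60 of the named genes 0 reversed past the threshold, and Thbs2, Ccn4, Sox9, Spp1, Sdc4 and Cemip changed side. Deviations of same-numbered libraries from their group means correlated at -0.01, -0.01 and 0.02, which gave no sign of pairing by replicate number. A batch shared in another way could not be seen by this. The fit with a replicate block called 3811 genes higher and 3975 lower, the members stayed at 1 and 7, and Spp1 was called. Among list counts, fasciclin and CCN genes higher became 2 with library size alone. Basement membrane and cell surface proteoglycans higher became 1 on log2(FPKM + 1) and 1 on log2(FPKM + 0.1), and ran between 1 and 2 on leaving out a library. Cleaving and sulfate-removing enzymes higher became 1 in DESeq2, 1 with chromosome 14 left out, 1 on log2(FPKM + 1) and 1 on log2(FPKM + 0.1), and ran from 1 to 2 without single libraries. Leaving out single libraries gave 1 to 2 thrombospondin genes lower and 5 to 8 chain-building enzymes higher. It also gave 2 to 3 fasciclin and CCN genes lower, and receptors at 8 to 9 higher and 8 to 9 lower. Cleaving and sulfate-removing enzymes lower ran from 7 to 9, and TGF-beta list genes lower from 5 to 6. The cause was not tested. On log2(FPKM + 1), where low values are compressed, the log2 fold changes of Thbs3 (-0.34), Ecm2 (-0.72), Itga4 (-1.05), Col1a2 (1.496), Lpl (1.98), Pdgfrb (-1.71), Mmp2 (-3.54) and Col1a1 (-3.53) were smaller by over 1.5 times in fold, all in the main direction. Depth limits Thbs2 (66 to 108 counts), Dcn in Prr33-gRNA (54 to 59) and Lum (0).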

Other observations

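Of the 43 untested genes in the related lists, 5 had CPM ranges that did not overlap between the groups. The 57.9% seen over tested genes is not a like measure, because genes with 0 counts in every library overlap by definition. No share over all untested genes is given here. The 5 genes were at levels too low for the filter. Prelp, for a leucine-rich proteoglycan of basement membranes, had 6, 2 and 3 counts in the Ctrl-gRNA libraries and 0 in each Prr33-gRNA library. Smoc2, of the SPARC family, had 4, 2 and 3 counts against 0, 0 and 0, and Cspg4, the proteoglycan NG2, had 2, 2 and 1 against 0, 0 and 0. Chst7, a chondroitin sulfotransferase on the X chromosome, had 0 counts in each Ctrl-gRNA library and 6, 9 and 7 in the Prr33-gRNA libraries. Chad, for chondroadherin, had 8, 4 and 8 counts against 3, 4 and 4 (its CPM ranges do not overlap although the counts touch at 4). A count of 0 allows up to 3 counts in a library, and some or all Ctrl-gRNA counts of Prelp, Smoc2 and Cspg4 lie within that limit. These genes were picked after their counts were seen and were not tested.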
